A study of Mus musculus with 6 samples.

Results

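The type I hair keratins are the acidic keratins of the hair shaft. The array measured 6 of their genes, Krt31, Krt32, Krt33b, Krt34, Krt35 and Krt36, with 9 of its 12422 probe sets other than controls. The members were chosen by name: every probe set was taken whose platform annotation gave 1 of these 6 symbols or an older synonym, checked through Entrez identifiers. None of the 9 probe sets listed a second gene. Total RNA of whole skin was hybridised to 6 single-sample Affymetrix expression arrays. The 3 FVB samples came from mice of the albino FVB inbred strain and the 3 GC13 samples from a transgenic mouse line that overexpresses Hoxc13, all taken 5 days after birth. The promoter of the transgene, the number of founder lines, the strain background of GC13 and any pooling of mice are not stated in the labels. The labels also do not tell whether each sample was a different mouse, so p-values cover only the spread among these samples, possibly technical.

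Hair keratins form the intermediate filaments of the hair cortex and cuticle. Each filament is built from pairs of 1 type I and 1 type II keratin, and keratin-associated proteins then cross-link the filaments through their cysteines. The genes are switched on in sequence as matrix cells of the growing follicle rise and harden. Hoxc13 is a homeodomain transcription factor of these cells that binds hair keratin promoters, and LEF1 is a Wnt pathway factor for which sites in such promoters are also known. In hair, Krt35 is an early keratin of the matrix, cortex and cuticle, Krt31, Krt33b and Krt34 are keratins of the cortex, and Krt32 is a keratin of the cuticle. Krt36 has been described in the hair cortex and in hard epithelia such as the nail and the papillae of the tongue.

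The 6 genes are direct neighbours on mouse chromosome 11. Their order in RefSeq (assembly GRCm38.p6) is Krt33b, Krt34, Krt31, Krt32, Krt35 and Krt36, with Krt33a on the Krt33b side and Krt13 on the Krt36 side. The RefSeq promoter table of the same assembly held 5 of the 6 genes, all but Krt35. The 250 bases before the annotated start are shown for these genes, because the line overexpresses a factor known to bind this kind of promoter and because the layout of the letters differs between Krt36 and the rest. All windows lie on the minus strand, at Krt33b chr11:100029869-100030118, Krt34 chr11:100041555-100041804, Krt31 chr11:100050552-100050801, Krt32 chr11:100088270-100088519 and Krt36 chr11:100105627-100105876. Capitals mark, on the strand of the gene, CTTTGAAG, TTTTATG and TATAAA.
Krt33b: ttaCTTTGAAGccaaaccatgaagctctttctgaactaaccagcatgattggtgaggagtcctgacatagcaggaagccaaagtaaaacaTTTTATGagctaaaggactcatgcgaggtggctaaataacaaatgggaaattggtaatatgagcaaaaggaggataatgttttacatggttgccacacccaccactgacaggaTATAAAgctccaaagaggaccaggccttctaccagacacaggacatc
Krt34: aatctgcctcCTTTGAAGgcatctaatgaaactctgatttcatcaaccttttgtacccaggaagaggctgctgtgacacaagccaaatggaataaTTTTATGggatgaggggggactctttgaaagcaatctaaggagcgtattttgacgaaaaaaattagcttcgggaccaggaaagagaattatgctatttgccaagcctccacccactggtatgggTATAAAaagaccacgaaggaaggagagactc
Krt31: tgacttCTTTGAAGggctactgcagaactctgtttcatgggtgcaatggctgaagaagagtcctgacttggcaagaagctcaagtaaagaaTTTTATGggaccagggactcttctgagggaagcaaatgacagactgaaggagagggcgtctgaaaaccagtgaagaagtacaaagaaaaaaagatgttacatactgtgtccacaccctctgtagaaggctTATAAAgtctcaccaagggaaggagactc
Krt32: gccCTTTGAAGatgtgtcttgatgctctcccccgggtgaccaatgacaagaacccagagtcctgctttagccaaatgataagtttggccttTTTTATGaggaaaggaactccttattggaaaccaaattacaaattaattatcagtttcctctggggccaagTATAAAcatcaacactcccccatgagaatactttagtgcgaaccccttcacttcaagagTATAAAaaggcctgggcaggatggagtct
Krt36: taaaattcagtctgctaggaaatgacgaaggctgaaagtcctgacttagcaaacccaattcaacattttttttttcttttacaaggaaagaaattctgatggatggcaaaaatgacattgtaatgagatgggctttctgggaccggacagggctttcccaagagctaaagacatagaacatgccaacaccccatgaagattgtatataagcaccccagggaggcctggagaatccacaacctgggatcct

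The window of each of Krt33b, Krt34, Krt31 and Krt32 held CTTTGAAG, the known type of LEF1 site, with its first base between 240 and 247 bases before the start. The same 4 windows held TTTTATG with its first base between 155 and 160 bases before the start, and TATAAA. In Krt32 TATAAA occurred at 88 and at 29 bases before the start. The 7 letters TTTTATG were chosen after the sequences were read. They overlap in all 4 genes a match to the known Hoxc13 consensus, which was searched as TTAATNAA, TTAATNAG, TTAATNGA, TTAATNGG, TTTATNAA, TTTATNAG, TTTATNGA and TTTATNGG. The match was TTTATGAG in Krt33b and Krt32 and TTTATGGG in Krt34 and Krt31. Krt31 held another match on the opposite strand that overlaps its TATAAA. None of these motifs was found on either strand of the Krt36 window. For TATAAA only these exact letters were searched, and the Krt36 window holds the similar run tatataag, which was not counted. Over 32817 promoter windows of the same length and both strands, 1.42% held CTTTGAAG, 3.78% held TTTTATG, 17.2% held a match to the consensus and 12.4% held TATAAA. The same search covered windows of further hair keratins, on both strands. The 7 letters and the consensus were each found in 2 of 2 windows of other type I hair keratins. Each was also found in 2 of 2 windows of type II hair keratins, so neither was particular to the members. The LEF1 type of site was in 1 of 2 of these type I windows and 0 of 2 of the type II windows. A match is a run of letters and not a measured site.

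Total intensity per array lay between 1626361 and 1736141, and 3 arrays per group limited the precision. The annotation gave Hoxc13 no probe set, so its level was not analysed here. The Gapdh 3' over 5' ratio, which rises where messenger RNA has lost its 5' part, lay between 0.894 and 0.958 on the FVB arrays and was 2.22, 9.58 and 2.19 on GC13 replicates 1, 2 and 3. The same ratio for beta-actin lay between 1.16 and 1.36 on the FVB arrays. It was 1.26, 3.80 and 1.43 on GC13 replicates 1, 2 and 3. The Y-linked gene Eif2s3y measured 69.4 to 98.9 on the FVB arrays, 143 on GC13 replicate 2 and 3.25 and 4.60 on GC13 replicates 1 and 3. GC13 replicate 2 therefore stood apart from its group, and the counts of probe sets or genes past the threshold below are given with and without it. Of the marker lists, 8 of 9 suprabasal epidermis genes and 10 of 10 fibroblast genes were measured and passed the filter on low values. All 7 skeletal muscle genes and all 7 endothelial genes passed it as well. Passing the filter therefore could not check the tissue label. The probe sets of the basal keratins Krt5, Krt14 and Krt15 did not pass the filter, with at most 14.2 on any array.

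In the comparison of GC13 with FVB, none of the 9 probe sets passed the threshold with all 6 arrays, against 0.472% of all probe sets tested. The groups also differ in the Gapdh ratio, and the strain background of GC13 is not stated, so the comparison does not isolate excess Hoxc13. The threshold was a limma p of 0.05 after Benjamini-Hochberg adjustment over the 9316 probe sets that passed the filter on low values, and fold changes are GC13 minus FVB on the log2(intensity + 2) scale with each array centred on its median. The cortex and matrix keratins Krt31, Krt34 and Krt35 and 1 probe set of Krt33b had lower values on GC13 replicates 1 and 3 than on every FVB array, while Krt36 had higher ones. GC13 replicate 2 lay nearer to FVB for these genes. Without it, Krt33b (162106_f_at), Krt34 and Krt35 (98997_f_at) were lower and Krt36 was higher in GC13 past the threshold. Krt31, both Krt32 probe sets, the second Krt35 probe set and the other Krt33b probe set did not pass in either comparison.

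**Figure D1:**
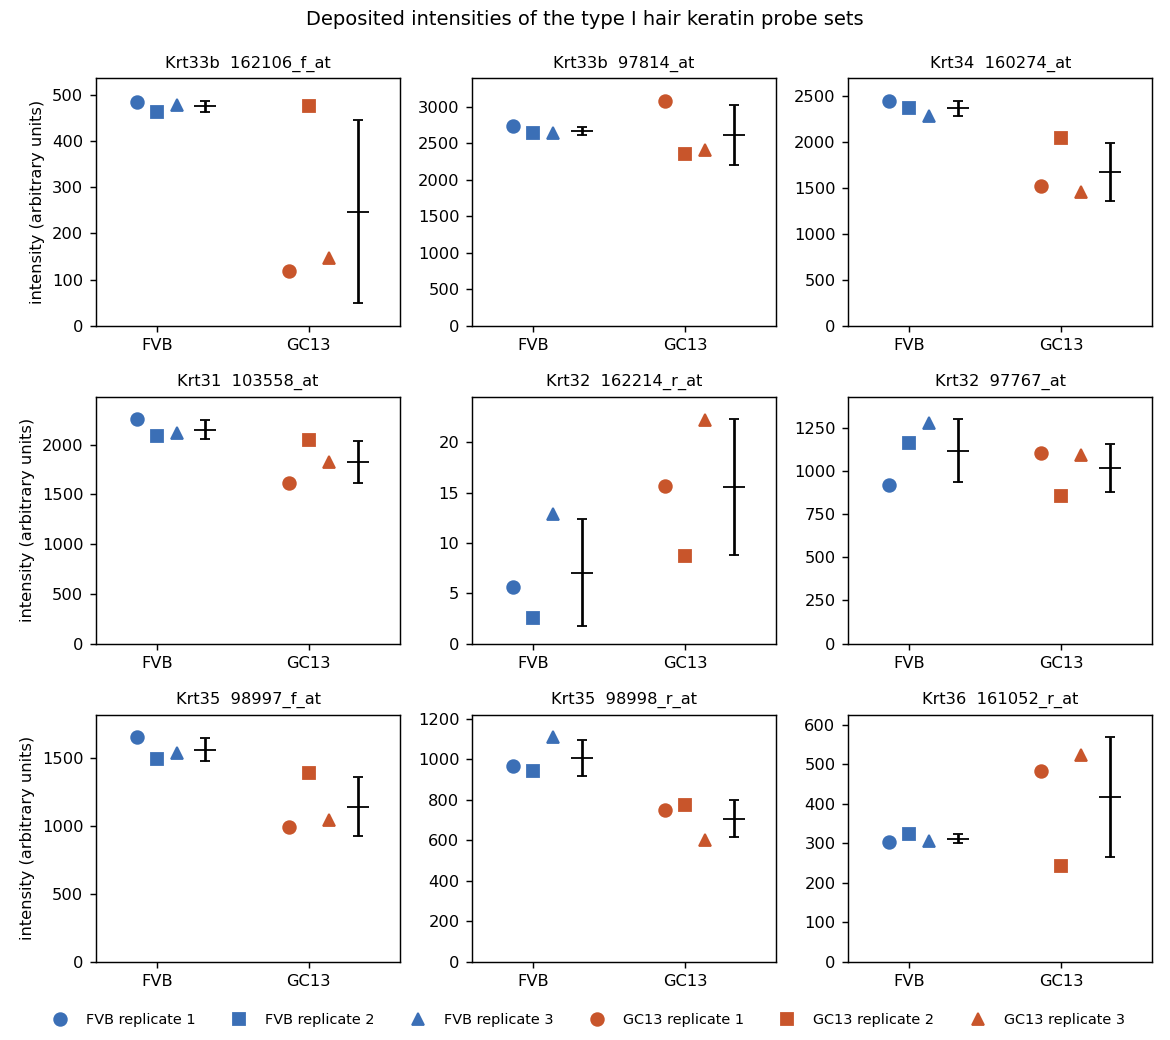
Deposited intensity (vertical axis, arbitrary units, from 0) of the 9 probe sets on each array. Points are single arrays, and the bars beside them are the mean and SD of 3 arrays. For Krt33b 162106_f_at, GC13 replicate 2 lies at 476 among the FVB arrays while GC13 replicates 1 and 3 lie at 118 and 147.

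Krt33b, a keratin of the cortex, was measured by a pair of probe sets that behaved differently. Probe set 162106_f_at had intensities of 486, 463 and 479 on the FVB arrays against 118, 476 and 147 on the GC13 arrays. GC13 replicate 2 lay within the narrow span of the FVB arrays, while GC13 replicates 1 and 3 lay far below it. The groups thus overlapped through 1 array, with means of 476 ± 11.7 and 247 ± 199 (SD, n = 3 each). The log2 fold change was -1.15 (SE 0.54, limma adjusted p = 0.353), with a 95% interval from -2.39 to 0.09. Without GC13 replicate 2 it was -1.86 (SE 0.15, limma adjusted p = 0.00392).

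The other Krt33b probe set, 97814_at, had intensities of 2740, 2635 and 2638 on the FVB arrays against 3082, 2356 and 2403 on the GC13 arrays. GC13 arrays lay on both sides of the FVB arrays. Its log2 fold change was 0.03 (SE 0.21, limma adjusted p = 0.959), with a 95% interval from -0.45 to 0.52, and 0.00395 without GC13 replicate 2. Within each array, the intensity of 162106_f_at over that of 97814_at was 0.178, 0.176 and 0.182 on the FVB arrays against 0.0383, 0.202 and 0.0614 on the GC13 arrays. The probe sets named for the same gene therefore changed unequally on GC13 replicates 1 and 3. The highest intensity of any probe set was 3673, 3058 and 3320 on the FVB arrays. It was 6705, 3506 and 4930 on the GC13 arrays. Probe set 97814_at thus lay near the top of the FVB arrays, and whether its signal was limited there was not tested. The ending _f_at marks a probe set whose probes also match other members of a gene family. Krt31, Krt33a, Krt33b and Krt34 are close relatives, so signal on any of their probe sets can include the others, and Krt33a had no probe set of its own.

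Krt34, which encodes another cortex keratin, had intensities of 2445, 2363 and 2283 on the FVB arrays against 1524, 2036 and 1451 on the GC13 arrays. Every GC13 array lay below every FVB array on the deposited scale, with GC13 replicate 2 closest. The means were 2364 ± 80.9 and 1670 ± 319 (SD, n = 3 each). The log2 fold change was -0.44 (SE 0.26, limma adjusted p = 0.456). Without GC13 replicate 2 it was -0.69 (SE 0.15, limma adjusted p = 0.0343).

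Krt31, a major keratin of the cortex, had intensities of 2259, 2083 and 2116 on the FVB arrays against 1618, 2044 and 1822 on the GC13 arrays. The GC13 arrays were again all below the FVB arrays as deposited, though the gap between GC13 replicate 2 and the lowest FVB array was small against the spread in FVB. Its log2 fold change was -0.17 (SE 0.23, limma adjusted p = 0.76). Without GC13 replicate 2 it was -0.35 (SE 0.15, limma adjusted p = 0.145), not past the threshold.

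Krt35, the early keratin of the matrix, was measured by a pair of probe sets that differed little in their fold changes. Probe set 98997_f_at had 1654, 1488 and 1535 on the FVB arrays against 989, 1388 and 1040 on the GC13 arrays. Probe set 98998_r_at had 968, 940 and 1109 on the FVB arrays against 748, 773 and 600 on the GC13 arrays; the ending _r_at marks a set for which some rules of probe choice were relaxed. On both, every GC13 array lay below every FVB array as deposited. For the first set GC13 replicate 2 lay nearest to FVB by a wide margin, and for the second it lay near GC13 replicate 1. The log2 fold change was -0.39 for the first (SE 0.26, limma adjusted p = 0.502) and -0.44 for the second (SE 0.24, limma adjusted p = 0.421). Without GC13 replicate 2 they were -0.64 (limma adjusted p = 0.0394) and -0.60 (limma adjusted p = 0.0727), so 1 of the pair passed. The set that passed, 98997_f_at, has the ending _f_at, so its signal can include other members of the family.

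Krt32, the cuticle keratin, had intensities of 917, 1158 and 1276 on the FVB arrays against 1103, 856 and 1090 on the GC13 arrays on 97767_at. The groups overlapped, and the FVB arrays varied more than the GC13 arrays. The log2 fold change was -0.06 (SE 0.20, limma adjusted p = 0.916), with a 95% interval from -0.53 to 0.41, and -0.04 without GC13 replicate 2. Its second probe set, 162214_r_at, was dim, with 5.65, 2.57 and 12.9 on the FVB arrays against 15.7, 8.75 and 22.3 on the GC13 arrays. It overlapped between groups, and its log2 fold change, 1.12 with SE 0.43 (limma adjusted p = 0.278), ran from 0.32 to 1.55 over the alternatives. This dim set was the 1 member with an unadjusted limma p under 0.05, at 0.0311.

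Krt36 went the other way. Its probe set, 161052_r_at, had intensities of 304, 324 and 306 on the FVB arrays against 484, 244 and 524 on the GC13 arrays. GC13 replicates 1 and 3 lay above every FVB array and GC13 replicate 2 below every one. The means were 311 ± 11.2 and 417 ± 152 (SD, n = 3 each). The log2 fold change was 0.42 (SE 0.26, limma adjusted p = 0.474). Leaving out GC13 replicate 2 gave 0.67 (SE 0.14, limma adjusted p = 0.0311).

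**Figure D2:**
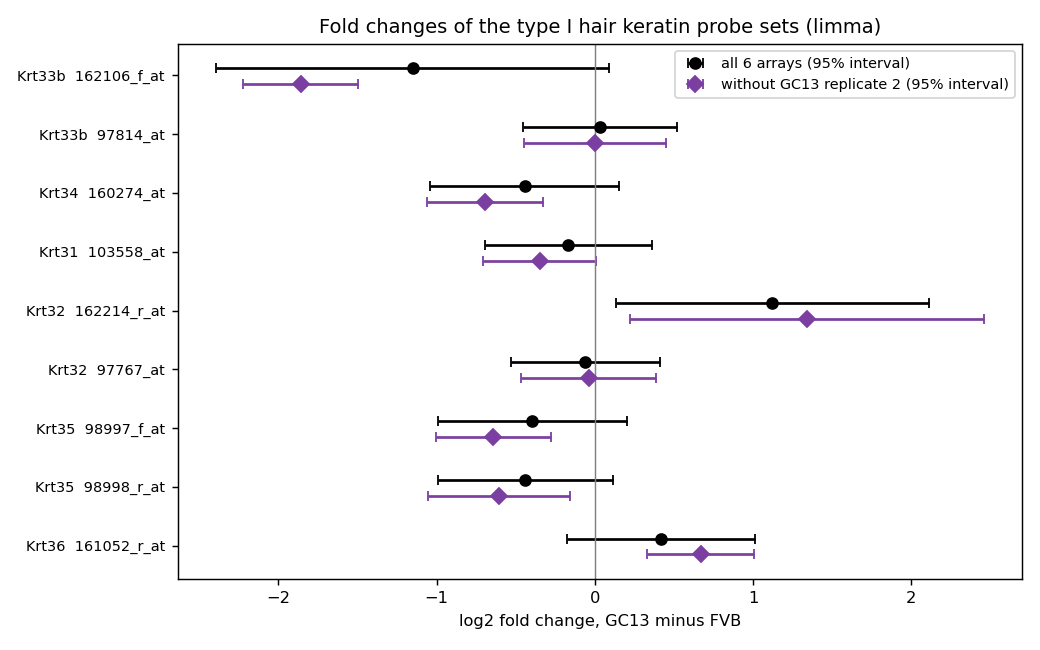
Log2 fold change of each probe set, GC13 minus FVB (horizontal axis), on the median-centred log2(intensity + 2) scale, with 95% intervals from limma. Black circles use all 6 arrays and purple diamonds leave out GC13 replicate 2. Without that array the intervals of Krt33b 162106_f_at, Krt34, both Krt35 sets, Krt36 and Krt32 162214_r_at do not reach 0, and that of Krt33b 97814_at stays centred near 0.

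Over the family, 0 of 9 probe sets passed the threshold in limma with all 6 arrays, against 0.472% of the 9316 probe sets tested (0.386% lower and 0.0859% higher). At an unadjusted limma p under 0.05 the count was 1 of 9, against 15.5% of those tested. The log2 fold change was below 0 for 6 of 9 members and for 42.6% of all probe sets tested. The members' median was -0.17 and that of all probe sets tested was 0.08. Without GC13 replicate 2, 4 of 9 members passed, 3 lower and 1 higher, against 15% of the probe sets tested (8.84% lower and 6.14% higher), and the median was -0.35 against 0.02. On GC13 replicate 2 the members' median lay 0.09 above the FVB mean, while on GC13 replicates 1 and 3 it lay at -0.38 and -0.32. The median of all probe sets tested lay 0.21 above the FVB mean on GC13 replicate 2, and at 0.066 and -0.020 on GC13 replicates 1 and 3. On the centred scale the members' median was thus below that of all probe sets tested on each GC13 array. It was also below on FVB replicates 2 (-0.057 against -0.011) and 3 (-0.043 against -0.019). On FVB replicate 1 it was above (0.074 against 0.042). Among the GC13 arrays, replicate 2 was nearest to the FVB mean for 8 of 9 members and for 33.2% of all probe sets tested. The Gapdh ratio of that array and the Eif2s3y levels of the other GC13 arrays differ along the same lines, and their part in these differences was not tested. In the comparison without GC13 replicate 2, the line, the Gapdh ratio and the Eif2s3y level cannot be told apart. By the beta-actin ratio, GC13 replicate 1 lay within the span of the FVB arrays and GC13 replicate 3 slightly above it.

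Whether the groups overlapped depended on how the arrays were scaled. As deposited, the GC13 arrays all lay below the FVB arrays for 4 of 9 members, Krt31, Krt34 and both Krt35 sets, against 12.3% of all probe sets tested. After each array was centred on its median this held for 0 of 9 members, against 9.91%, since GC13 replicate 2 had the lowest median intensity, 29.0, and was raised by the centring. After quantile normalization it held for 6 of 9 members, against 11.5%. The added members were both Krt33b sets, of which 97814_at had log2 fold changes of 0.03 when centred and -0.27 after quantile normalization. On GC13 replicate 2, Krt34 lay 0.05 above the FVB mean when centred, 0.21 below it as deposited and 0.26 below it after quantile normalization.

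**Figure D3:**
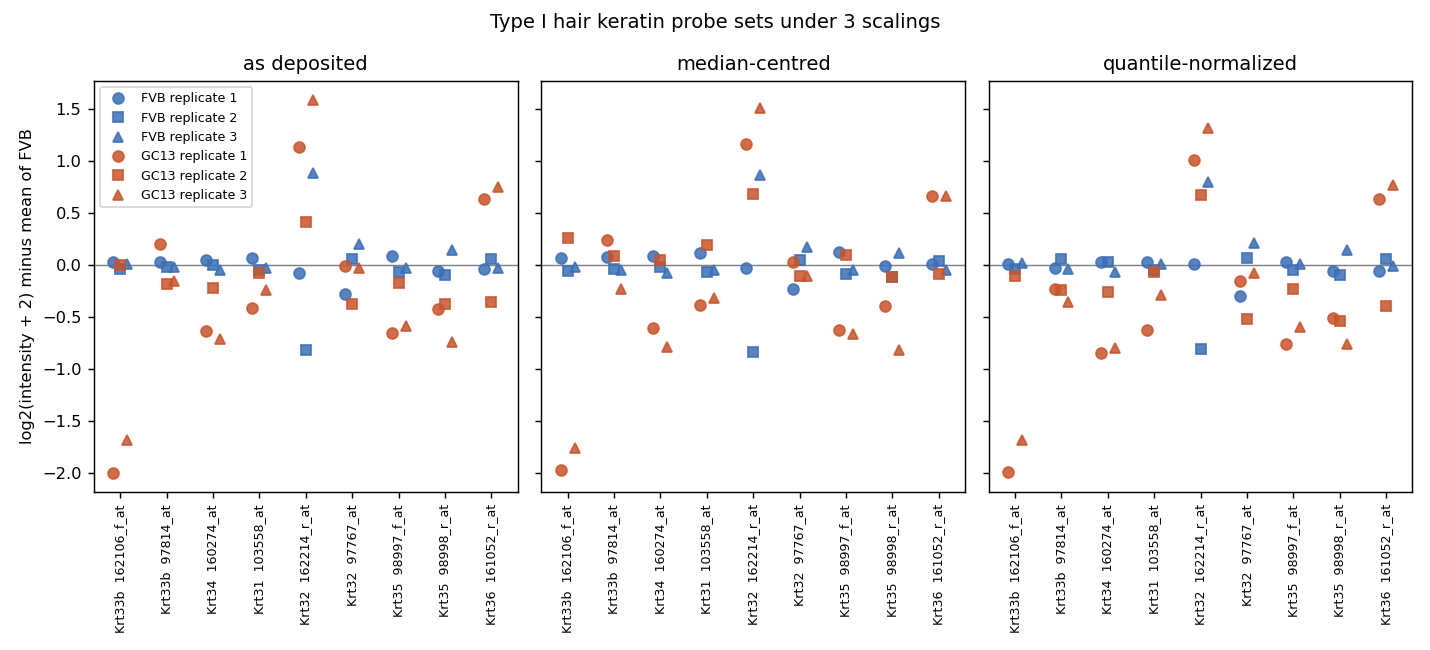
Log2(intensity + 2) of each array minus the FVB mean (vertical axis) for the 9 probe sets, in chromosome order, as deposited, centred on array medians and after quantile normalization. Points are single arrays. GC13 replicate 2 (orange squares) moves relative to the FVB arrays from panel to panel, while GC13 replicates 1 and 3 stay below them for Krt34, Krt31, Krt35 and Krt33b 162106_f_at and above them for Krt36.

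Among the partners of these keratins, 4 of 7 type II hair keratin genes had a probe set, Krt81, Krt83, Krt84 and Krt86. All 4 passed the filter on low values. None passed the threshold, 3 lay below 0 and 1 above, and their median was -0.56. Krt83 averaged 2348 ± 104 on the FVB arrays against 1431 ± 307 on the GC13 arrays (SD, n = 3 each), and Krt84 averaged 81.9 ± 4.15 against 40.8 ± 7.66. GC13 replicate 2 alone had medians against the FVB mean of -0.57 for the type II genes and 0.07 for the 6 type I genes. This difference was not tested. Without that array Krt84 was lower past the threshold, at -0.998 (limma adjusted p = 0.0198), and the other type II genes did not pass.

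Of 15 regulators of hair keratin genes on a fixed list, 13 were tested and none passed, with 9 below 0, 4 above and a median of -0.53. Foxn1, the nude gene and an activator of hair keratins, averaged 47.0 ± 6.12 on the FVB arrays against 8.24 ± 9.48 on the GC13 arrays (SD, n = 3 each), with a log2 fold change of -2.60 (limma adjusted p = 0.1). Its probe set was dim, with 19.0, 1.31 and 4.35 on GC13 replicates 1, 2 and 3, so the size of this change is uncertain. Lef1 averaged 427 ± 47.6 against 465 ± 139, a log2 fold change of 0.16. The homeobox gene Dlx3 averaged 703 ± 34.6 against 371 ± 28.0. Without GC13 replicate 2, 5 of the 13 (Foxn1, Msx1, Dlx3, Foxq1 and Prdm1) were lower past the threshold and none was higher, where 8.84% of all probe sets tested were lower and 6.14% higher.

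Markers of other skin cells also differed between arrays. Fewer cells of a type and less RNA per cell cannot be told apart in whole skin. Summed over the 6 type I hair keratins, 1 probe set per gene, intensity ran from 10052 to 10318 in FVB and was 8801, 8924 and 8330 in GC13. The 8 tested inner root sheath and companion layer genes summed to between 9515 and 10039 in FVB and to 10066, 8906 and 8342 in GC13, and 1 of them, Krt72, fell. The 10 dermal papilla and fibroblast genes summed to between 7522 and 8217 in FVB and to 11486, 9672 and 10342 in GC13, and 1, Vcan, rose. The 8 suprabasal epidermis genes summed to between 7051 and 7299 in FVB and to 11276, 7046 and 10525 in GC13, where replicate 2 again lay near FVB and 1 gene, Krt77, fell. No probe set, these 3 genes included, passed in limma when any 1 FVB array was left out, with 758 to 941 at an unadjusted p under 0.05. Without GC13 replicate 1 or 3 no probe set, Vcan included, passed as higher in limma, with 1179 and 1576 at an unadjusted p under 0.05 in either direction. The 7 proliferation genes summed to between 1912 and 2005 in FVB and to 2733, 2536 and 2533 in GC13, with none past the threshold. With all 6 arrays no gene passed the threshold in the other lists, of which 7 melanocyte genes had a median log2 fold change of -0.55, 6 immune genes -0.36, 5 outer root sheath and basal genes 0.07, 4 adipocyte genes 0.31, 7 endothelial genes 0.39 and 7 skeletal muscle genes 0.46. In the comparison without GC13 replicate 2, in which 4 keratin probe sets passed, genes of most of these lists passed as well, beside 8.84% of all probe sets tested that were lower and 6.14% that were higher. Of the dermal papilla and fibroblast genes 5 of 10 rose (Col1a2, Vcan, Pdgfra, Alpl and Sox2), with a list median of 0.59. Sox2 was dim, with at most 24.6 on any array. Of the suprabasal genes 3 of 8 rose, Krt1 by 1.42, Lor by 0.95 and Flg by 1.15 on the log2 scale (limma adjusted p = 0.0098, 0.0168 and 0.0167), and 1, Krt77, fell. Krt1 is an early keratin of differentiating epidermis, and Lor and Flg encode proteins of its outer layers. In skeletal muscle 3 of 7 rose (Myh3, Tnnt3 and Casq1), in endothelium 1 of 7 (Eng) and among the proliferation genes 1 of 7 (Mcm2). Of the melanocyte genes 2 of 7 fell (Tyrp1 and Oca2), of the immune genes 2 of 6 (Lyz2 and C1qa) and 1 of 8 inner root sheath and companion layer genes (Krt72). The lowest limma adjusted p was 0.076 among the 5 outer root sheath and basal genes (Itgb4) and 0.115 among the 4 adipocyte genes (Fabp4). The part of these other cells in the keratin values was not tested.

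The genes whose values followed the members most closely over the 6 arrays were ranked among 6861 named genes. By Pearson correlation with the mean of the 9 standardised member profiles, they were Slc44a1, Map7, Etaa1, Pbrm1 and Selenbp1, with r between 0.982 and 0.987. Since the members go opposite ways this mean is not the profile of any of them, so the ranking was repeated for single probe sets, chosen after their values were seen. Nearest to Krt33b 162106_f_at was Krtap5-4, a cysteine-rich keratin-associated protein gene (r = 0.998), with 859, 849 and 819 on the FVB arrays against 256, 790 and 292 on the GC13 arrays. Ces1d, Lratd1, S100a8 and Cntrob followed with r of 0.997 each, so r barely separated Krtap5-4 from them. Nearest to Krt34 was Guf1 (r = 0.999), a dim probe set, and nearest to Krt36 was Cdt1 (r = 0.994), with 144, 149 and 152 on the FVB arrays against 203, 121 and 221 on the GC13 arrays. For Krtap5-4, Guf1 and Cdt1 alike, GC13 replicates 1 and 3 lay apart from the other 4 arrays, and all values compared come from the same arrays.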

How the data were processed

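Expression was measured in whole skin of 3 FVB and 3 GC13 samples, grouped by their titles. The deposited values are intensities on a linear scale, 1 per probe set and array, all above 0; no software or background correction is named for them in the sources used here. The 66 control probe sets were left out. Analysis used log2(intensity + 2), which understates fold changes of dim probe sets, and each array was centred on its median, since medians differed by up to 0.345. Dropping the dimmest 25% by mean left 9316 probe sets and kept all 9 members. The groups were compared with limma (version 3.58.1, R version 4.3.3; lmFit, then eBayes, two-sided, Benjamini-Hochberg adjustment over all 9316, threshold 0.05). Log2 fold changes are GC13 minus FVB. Names came from the platform annotation, updated through Entrez identifiers with RefSeq (GRCm38.p6); 10833 probe sets had 1 gene. A gene in a list stood by its brightest probe set. From each list the text could name members past the threshold, the 2 with the highest mean and the 2 with the largest change; Lef1 and the genes most like single probe sets were named after their values were seen. On simulated arrays with 200 of 9316 probe sets changed in the comparison of GC13 with FVB, a log2 change of 2 was recovered in 97.4% and a change of 1 in 0.275%. The mean share of false calls was 5.37% and 11%. The simulated spread of each probe set was the same on all arrays, unlike the data, where GC13 replicate 2 stood apart. The 16 alternatives cover pseudocount, filter, scaling, variance trend, array weights, replicate block and leaving out each array. The members and lists were chosen with earlier results of these data known.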

Additional observations from a re-analysis of the deposited data

How the results depend on the processing

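The count of 0 of 9 members past the threshold held in 14 of 16 alternatives, with 8 members tested where the lowest 50% were left out. It was 7 with array weights, where 3850 of 9316 probe sets (41.3%) passed. The weights were 4.12, 0.107 and 0.329 on GC13 replicates 1, 2 and 3, so within GC13 that fit rested mostly on replicate 1. The count of members ran from 0 to 4 when single arrays were left out, with 4 without GC13 replicate 2. The members' median of -0.17 was -0.32 with quantile normalization, -0.38 with array weights and -0.28 over the 8 members tested with the lowest 50% left out. It ran from -0.35 without GC13 replicate 2 to -0.093 without GC13 replicate 3, and was -0.10 without GC13 replicate 1. Over all probe sets, 44 passed, 36 lower and 8 higher. The count was 83 and 119 with pseudocounts of 16 and 32, 23 with the lowest 50% left out and 28 with the deposited scaling, of which 26 were lower. It was 0 in limma without any 1 of the FVB replicates (with 758 to 941 at an unadjusted p under 0.05), 21 and 14 without GC13 replicates 1 and 3 and 1396 without GC13 replicate 2. The causes were not tested.

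Both fold changes nearest to 0 changed sign. That of Krt33b 97814_at was -0.0030 with a pseudocount of 32, -0.042 with the deposited scaling, -0.27 with quantile normalization and, over arrays left out, between -0.073 and 0.16. That of Krt32 97767_at was 0.067 with array weights and between -0.17 and 0.031 over arrays left out. The other 7 members kept their direction in every alternative listed.

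Whether replicate numbers pair the arrays was not settled. Same-numbered deviations from the group means correlated at -0.068, 0.18 and 0.356. Those with unlike numbers correlated at between -0.35 and 0.23. With the replicate block, 78 probe sets passed and 0 members.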
